A study of Mus musculus with 13 samples.

Results

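Gpr151 is an orphan G protein-coupled receptor of habenular neurons, and its closest relatives in sequence are the receptors for the peptides galanin and kisspeptin. The 7 genes described here are Gpr151, the galanin receptors Galr1, Galr2 and Galr3, the kisspeptin receptor Kiss1r, and the ligand precursors Gal and Kiss1, chosen by symbol from the 47172 symbols listed in at least 1 of 13 libraries. Of these 7 genes, 6 had a count above 0 in at least 1 library.

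The mice were adults of more than 8 weeks that carried the Chat-TRAP transgene, line DW167, in every group. Such a transgene puts a GFP-tagged ribosomal protein under the control of Chat, the gene for the enzyme that makes acetylcholine, so beads against GFP pull down ribosomes and their mRNA from cholinergic cells (translating ribosome affinity purification, TRAP). Medial habenula was dissected and pooled from 4 mice per library, or from 3 mice for libraries 852 and 855. There were 6 immunopurified (IP) libraries from mice that also carried the Gpr151 knockout (KO), 6 IP libraries from mice with the transgene and no knockout named (called wild type, WT), and 1 library of the unpurified homogenate of such WT mice (input). The labels give neither sex nor the design of the knockout allele, and names of most deposited tables mention saline while that of the input also mentions saccharin. Each library was its own pool of mice.

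Galanin is made by neurons of the hypothalamus and brainstem among others. Its receptors Galr1 and Galr3 act mainly through inhibitory Gi/o proteins, whereas Galr2 can also couple to Gq and phospholipase C. Kisspeptin, the product of Kiss1, acts on Kiss1r through Gq and is best known for driving the neurons that release gonadotropin-releasing hormone. Spexin, encoded by Spx, is a further peptide that activates Galr2 and Galr3. No endogenous ligand of Gpr151 is established.

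Counts assigned to genes ran from 32623249 to 64388596 in KO IP libraries and from 28375912 to 58502055 in WT IP libraries, and the input held 54701790. Levels below are CPM, counts scaled to a fixed library total made of the counts on the 22683 symbols shared by all 13 libraries. A count of 0 allows up to 3 counts, which is 0.0502 to 0.121 CPM per IP library and covers counting error only, since amplified reads are not independent molecules. Markers of the medial habenula were high in the purified RNA: the 17 markers summed to 6409 to 13409 CPM in KO IP and 8589 to 12602 CPM in WT IP libraries, against 1893 CPM in the input. Libraries 1099 and 1102 (KO) and 1091 (WT) stood apart by the highest levels of astrocyte, oligodendrocyte and microglial markers among the IP libraries. The 10 astrocyte markers summed to 1795, 1060 and 990 CPM in these 3 libraries, where the median was 417 CPM over KO and 235 CPM over WT IP libraries and the input had 2200 CPM.

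Gpr151 was lower in every KO library than in any WT library, but it stayed well above 0. Gpr151 lies on chromosome 18 at 42577881 to 42579652 on the minus strand (GRCm38, the assembly called mm10), in 1 exon of 1772 bases that no other annotated exon overlaps. The KO libraries 683, 855, 1099, 1100, 1101 and 1102 had 121, 203, 122, 212, 148 and 123 CPM. The WT libraries 682, 852, 1091, 1092, 1093 and 1094 had 516, 583, 382, 589, 389 and 416 CPM. The highest KO value thus lay below the lowest WT value, which was so for 13 of 14318 tested genes (0.0908%). The reverse held for 7 genes (0.0489%), none of them a relative or ligand chosen here. Oxt, named below, was among them, with 0.373 to 1.67 CPM in KO IP and 0.0249 to 0.0554 CPM in WT IP. The input held 66.2 CPM, less than any IP library of either genotype.

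**Figure D1:**
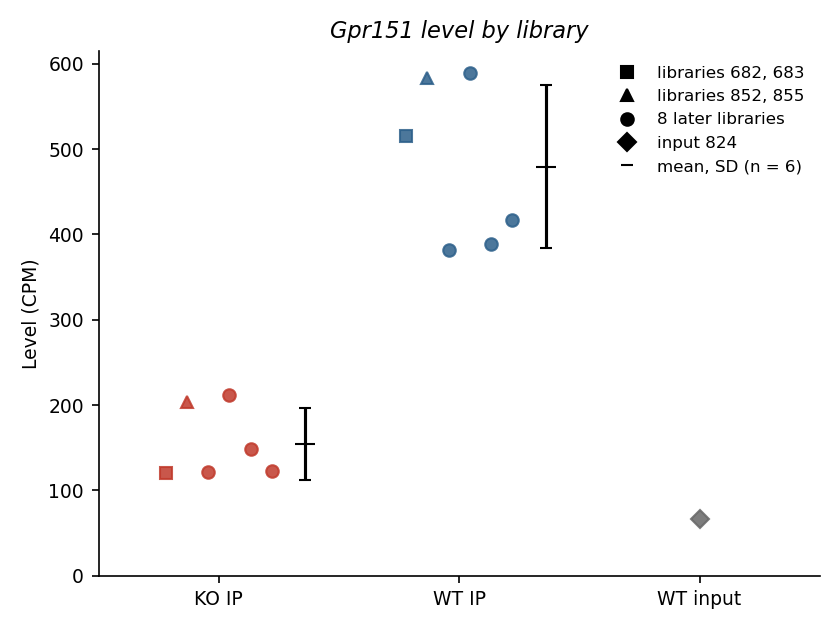
Gpr151 level in CPM (vertical axis, linear from 0) in each KO IP, WT IP and WT input library; point shape gives the set of library numbers and the bars give mean and SD over 6 libraries. The 6 KO libraries lie between 121 and 212 CPM and the 6 WT libraries between 382 and 589 CPM, with the input at 66.2 CPM.

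The mean was 155 ± 42.3 CPM in KO IP and 479 ± 95.6 CPM in WT IP (SD, n = 6 each; two-sided exact permutation p = 0.00216, the smallest that 6 against 6 can give). In the edgeR quasi-likelihood fit across all genes, Gpr151 fell by 1.63 on the log2 scale with a standard error of 0.17 (95% interval -1.995 to -1.26, Benjamini-Hochberg adjusted p = 0.00592), and its p ranked 1 among all genes tested. Of 14318 genes tested, 2 passed an adjusted p of 0.05 (0.014%), where DESeq2 called 12, and Gpr151 was the only gene among these 7 to do so. The other was Oxt, the oxytocin precursor, with 16 to 47 counts per KO IP library, 1 to 3 per WT IP library and 128 in the input, and it is named after its values were seen. Without library 683 the adjusted p was 0.0538 with a log2 fold change of -1.54, and with the 8 later libraries alone it was 0.424 with -1.54. Gpr151 in library 683 was at 23.4% of library 682, and in library 855 at 34.9% of library 852. In the 8 later libraries the KO mean was 34.0% of the WT mean. The genotype difference in the later libraries minus that in the earlier ones was 0.28 ± 0.36 on the log2 scale (SE, 95% interval -0.51 to 1.07, edgeR adjusted p = 1). In bulk RNA, fewer cells of a type and less RNA per cell cannot be told apart.

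The Gpr151 difference was also present when each library was scaled to its own habenular content. Per 100 counts of the 17 medial habenula markers, Gpr151 had 1.02 to 1.90 counts in KO IP libraries, 3.69 to 4.68 in WT IP libraries and 3.50 in the input. The means were 1.56 ± 0.30 in KO IP and 4.27 ± 0.40 in WT IP (SD, n = 6 each; two-sided exact permutation p = 0.00216), so the KO ratio was 36.5% of the WT ratio. All 17 of these markers were tested for genotype, none passed, and none had a log2 fold change above 0 (median -0.26, against 0.0019 over all tested genes). Among the markers themselves, Chat averaged 98.9 CPM in KO IP and 131 CPM in WT IP, and the nicotinic subunit Chrna3 1330 CPM in KO IP and 1345 CPM in WT IP.

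Among the receptors compared, counts assigned to Gpr151 gave the highest level per length in the IP libraries of both genotypes. The design of the allele is not given. It is thus not known which part of the exon the KO reads cover, or whether they code for a receptor. Levels of different genes were compared as CPM per kilobase of exon in GENCODE M21, which may differ from the gene models the authors counted on. Among 92 receptors (orphan receptors, neuropeptide receptors and the 5 receptors described here), Gpr151 ranked 1 in KO IP with 87.3 and 1 in WT IP with 270 CPM per kb. The next receptor was Sstr2, which binds somatostatin, with 32.4 CPM per kb in KO IP and 36.05 in WT IP. In the input, where 91 of these receptors had a value, Gpr151 had 37.3 CPM per kb, close behind the orphan receptor Gpr12 with 37.5.

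The relatives were far lower, and their order differed between purified RNA and input. Per kilobase, the KO IP means were 2.20 ± 1.28 for Kiss1r, 0.851 ± 0.756 for Galr1, 0.694 ± 0.513 for Gal, 0.361 ± 0.192 for Galr2 and 0.0623 ± 0.0443 CPM per kb for Galr3 (SD, n = 6). The WT IP means were 2.24 ± 0.56 for Kiss1r, 0.565 ± 0.555 for Galr1, 0.475 ± 0.262 for Galr2, 0.347 ± 0.489 for Gal and 0.0356 ± 0.0396 CPM per kb for Galr3 (SD, n = 6), and Kiss1 had no counts in either. Only Gpr151 was clear of its neighbour in this order, since the ranges of every other pair of neighbours overlapped in each genotype. In the input the order was Gpr151 (37.3), Gal (7.51), Galr1 (3.12), Kiss1r (1.26) and Galr2 (0.129 CPM per kb), so that the galanin precursor and Galr1 stood above Kiss1r there.

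Kiss1r, the kisspeptin receptor, was the relative with the most counts in purified RNA. It lies on chromosome 10 at 79916971 to 79922273 on the plus strand, and 6.41% of its exon bases overlap exons of R3hdm4 on the other strand, a gene at 237 CPM in KO IP, 283 CPM in WT IP and 122 CPM in the input. No source used here states whether reads were counted by strand, so reads from that overlap cannot be told apart. The KO libraries, in the order 683, 855, 1099, 1100, 1101 and 1102, had 11.5, 16.9, 3.28, 6.56, 7.34 and 5.27 CPM. The WT libraries, in the order 682, 852, 1091, 1092, 1093 and 1094, had 10.9, 10.5, 4.92, 7.98, 8.58 and 8.97 CPM, and the input had 4.87 CPM. The groups overlapped widely, and the 4 libraries of the earlier sets were above all 8 later ones in both genotypes.

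The Kiss1r means were 8.47 ± 4.94 CPM in KO IP and 8.65 ± 2.15 CPM in WT IP (SD, n = 6 each; two-sided exact permutation p = 0.946). The log2 fold change was -0.15 ± 0.23 (SE, 95% interval -0.65 to 0.35, edgeR adjusted p = 0.999). Within library sets the KO value was 105% of WT in libraries 683 and 682, 161% in 855 and 852, and 73.8% in the later libraries, and the interaction was -0.78 ± 0.45 (SE, edgeR adjusted p = 1).

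Galr2, a galanin receptor that also binds spexin, was low in all libraries. It lies on chromosome 11 at 116280939 to 116283938 on the plus strand and shares no exon bases with another annotated gene. Counts were 19, 30, 40, 12, 57 and 71 in the KO libraries and 20, 20, 40, 51, 83 and 87 in the WT libraries, in the same order, and 14 in the input. That corresponded to 0.201 to 1.38 CPM in KO IP, 0.554 to 2.16 CPM in WT IP and 0.317 CPM in the input. The groups overlapped, with the lowest value in KO library 1100. Means were 0.887 ± 0.471 CPM in KO IP and 1.17 ± 0.64 CPM in WT IP (SD, n = 6 each; two-sided exact permutation p = 0.407), and the log2 fold change was -0.33 ± 0.47 (SE, 95% interval -1.35 to 0.68, edgeR adjusted p = 0.999).

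Galr1, the galanin receptor with the widest range of levels among libraries, was highest in the libraries with the most markers of other cells. It lies on chromosome 18 at 82392380 to 82406777 on the minus strand. The KO libraries had 1.34, 0.748, 6.08, 0.887, 1.54 and 4.67 CPM. The WT libraries had 0.0554, 0.805, 4.44, 0.564, 1.39 and 2.86 CPM, and the input had 9.32 CPM. The highest values were those of KO libraries 1099 and 1102 and WT library 1091, which also held the highest summed levels of the lateral habenula and thalamus markers (3943, 3526 and 3055 CPM, against 6170 CPM in the input) and of the astrocyte markers. The lowest was WT library 682 with 2 counts.

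**Figure D2:**
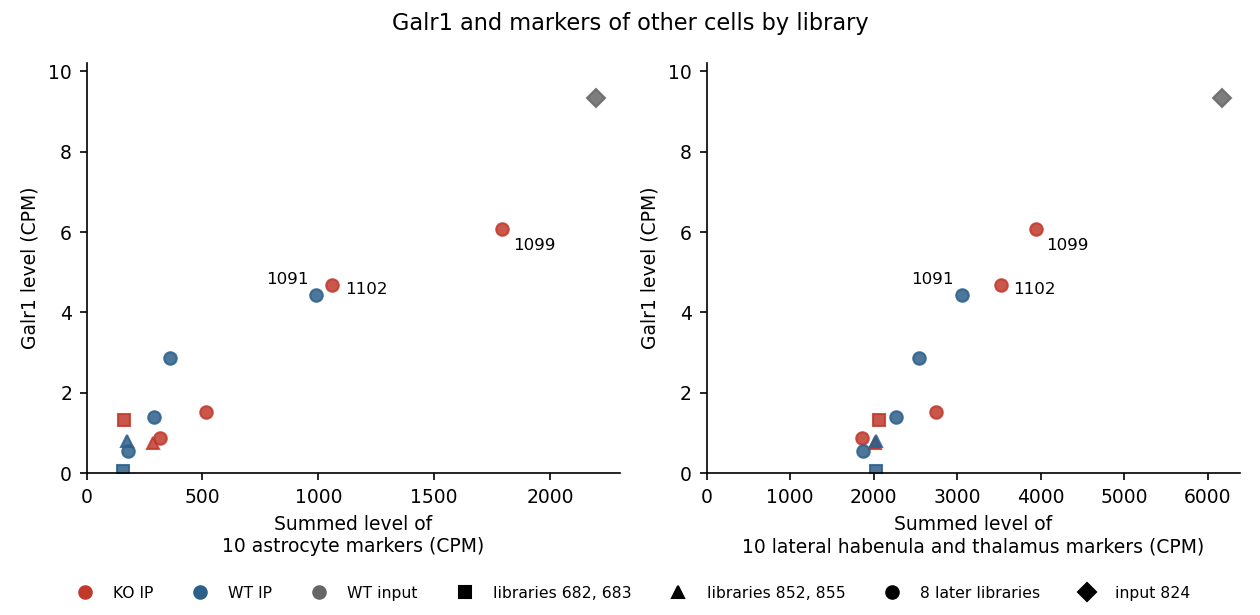
Galr1 level in CPM (vertical axis) against the summed CPM of 10 astrocyte markers (left) and of 10 lateral habenula and thalamus markers (right), 1 point per library; colour gives the group and shape the set of library numbers. The 3 IP libraries highest for Galr1 (1099, 1102 and 1091, at 6.08, 4.67 and 4.44 CPM) are also the 3 highest for both marker sums, and the input lies above them at 9.32 CPM.

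Galr1 averaged 2.54 ± 2.26 CPM in KO IP and 1.69 ± 1.66 CPM in WT IP (SD, n = 6 each; two-sided exact permutation p = 0.457). The log2 fold change was 0.85 ± 0.68 (SE, 95% interval -0.63 to 2.33, edgeR adjusted p = 0.999). Over 21 alternatives it ran from 0.11, with the mean level of non-neuronal markers in the model, to 1.88 with the 4 earlier libraries alone, and it was called in none. It was 0.41 without libraries 1091, 1099 and 1102, and 0.43 to 1.30 with 1 library left out, the lowest without 682 or 683 and the highest without 1091. Across groups, the lateral habenula and thalamus markers summed to 1865 to 3943 CPM in KO IP and 1874 to 3055 CPM in WT IP, and all 10 were detected in every library. The 10 GABAergic markers summed to 54.3 to 329 CPM in KO IP, 17.8 to 157 CPM in WT IP and 648 CPM in the input, with up to 1 marker at 0 in a KO library and up to 3 at 0 in a WT library. None of the 8 tested GABAergic markers passed, and all had log2 fold changes above 0 (median 1.09), as had 7219 of all 14318 tested genes. At an unadjusted edgeR p under 0.05 were 6 of the 8, against 438 of all tested genes. All 10 astrocyte markers (median 0.86) and all 10 oligodendrocyte markers (median 0.79) were also above 0. None of them passed, and 1 astrocyte and 0 oligodendrocyte markers had an unadjusted p under 0.05. The part of these cells in the Galr1 values was not tested beyond these fits.

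Gal, the galanin precursor, was nearly absent from purified RNA. It lies on chromosome 19 at 3409915 to 3414544 on the minus strand and overlaps no other exon. The counts were 45, 13, 36, 1, 9 and 35 in the KO libraries and 38, 1, 5, 9, 5 and 7 in the WT libraries, against 261 in the input. In CPM this was 0.0167 to 1.13 in KO IP, 0.0402 to 1.05 in WT IP and 5.92 in the input. Libraries 683 and 682, which share a set, were the highest of their genotypes. Gal had too few counts for the filter of the genotype test. The means were 0.547 ± 0.404 CPM in KO IP and 0.274 ± 0.385 CPM in WT IP (SD, n = 6 each; two-sided exact permutation p = 0.249), and without the filter the log2 fold change was 1.57 ± 0.74 (SE, 95% interval -0.0081 to 3.15, edgeR adjusted p = 0.985).

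Because galanin is known from hypothalamic and noradrenergic neurons, their markers were read beside it. The 14 hypothalamic markers summed to 11.6 to 33.8 CPM in KO IP, 10.8 to 33.3 CPM in WT IP and 29.9 CPM in the input. The 4 earlier libraries (855, 683, 682 and 852) were the highest of the IP libraries. Of these markers 8 were tested for genotype, with a median log2 fold change of 0.90, and 5 were above 0. Oxt was called (4.03 ± 0.44, SE, edgeR adjusted p = 0.00592), while the vasopressin precursor Avp (2.96 ± 0.79) and the transcription factor Sim1 (2.33 ± 0.84, SE, edgeR adjusted p = 0.999 for both) did not pass. Trh (1.05) and Hdc (0.74) were above 0, Cartpt (-0.22), Pomc (-0.20) and Agrp (-0.14) below 0, and none of these passed. Cartpt (mean log2 CPM 3.62 in the fit) and Pomc (1.48) had the highest levels of the tested markers, so the sum follows mainly these. Avp had 10 to 36 counts per KO IP library, 0 to 11 per WT IP library and 135 in the input. The orexin precursor Hcrt had 0 to 39 counts per KO IP library and 0 to 65 per WT IP library, and the melanin-concentrating hormone precursor Pmch 2 to 24 per KO IP library and 0 to 63 per WT IP library, with 4 of each in the input. The 6 noradrenergic markers summed to 58.5 to 93.0 CPM in KO IP, 62.5 to 100.1 CPM in WT IP and 23.3 CPM in the input, so this sum was above the input in all IP libraries. Most of it came from the monoamine transporter Slc18a2 (mean log2 CPM 5.82 in the fit, against 3.51 for Th). In each IP library 2 to 4 of the 6 markers had 0 counts, so the sum is not a measure of noradrenergic cells. Th, the enzyme that starts catecholamine synthesis, averaged 11.2 CPM in KO IP and 13.8 CPM in WT IP, against 3.56 CPM in the input. Dbh, which makes noradrenaline, had 0 counts in every KO library, at most 1 in a WT library and 2 in the input, and the noradrenaline transporter Slc6a2 at most 1 in a KO library, at most 3 in a WT library and 0 in the input. Neither of the 2 noradrenergic markers tested for genotype passed (Th -0.31 ± 0.21 and the monoamine transporter Slc18a2 -0.11 ± 0.17, SE, edgeR adjusted p = 0.999 for both). Their part in the Gal values was not tested.

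Galr3 and Kiss1 gave next to no signal. Galr3, on chromosome 15 at 79041885 to 79043558, shares 29.2% of its exon bases with Gcat on the same strand. No input value of Galr3 was available here. It had 2, 1, 3, 3, 8 and 4 counts in the KO libraries and 5, 1, 1, 1, 0 and 2 in the WT libraries. The totals were 21 in KO IP and 10 in WT IP, a ratio of 1.996 after scaling to library size (95% exact interval 0.900 to 4.75, counting error only; two-sided exact permutation p = 0.338 over 12 libraries). Among the 8 later libraries the groups were barely apart (exact permutation p = 0.0286, the smallest that 4 against 4 can give). The lowest KO value there was 0.0502 CPM (3 counts) and the highest WT value 0.0497 CPM (2 counts). How many of all tested genes were apart in these 8 libraries was not counted, so this separation is not read as a result about Galr3. In the earlier sets the higher count was in WT or the counts were equal.

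Kiss1 had 0 counts in all 13 libraries. In GENCODE M21 all of its exon bases are shared with Gm28040, a gene that reads through from the neighbour Golt1a and that is listed in the input table alone. Reads from Kiss1 in the input could therefore have been set aside as ambiguous, and its 0 there carries little information. In the IP libraries the limit was 0.0502 to 0.107 CPM in KO and 0.0529 to 0.121 CPM in WT.

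**Figure D3:**
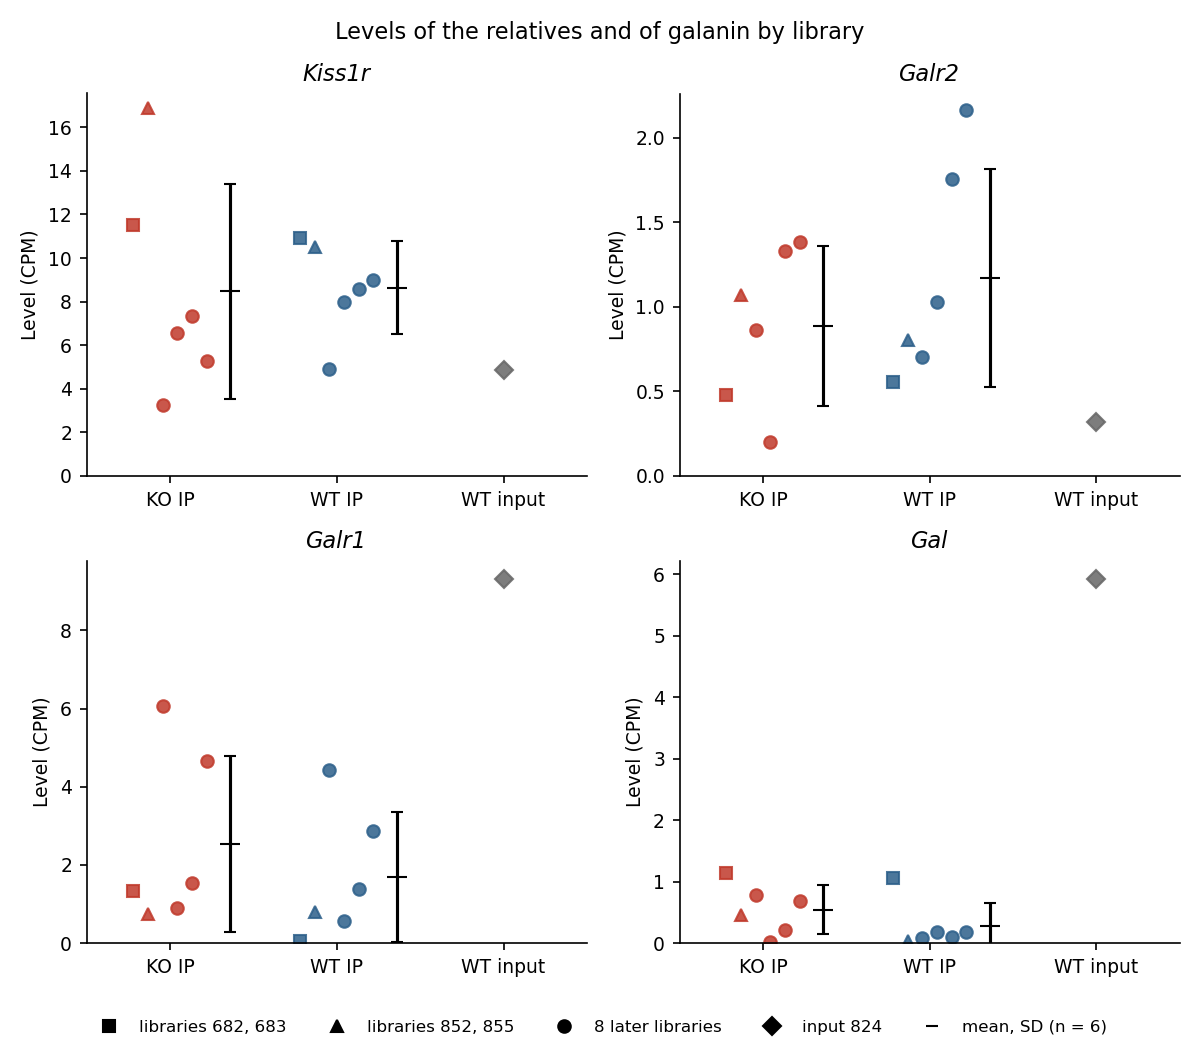
Levels of Kiss1r, Galr2, Galr1 and Gal in CPM (vertical axes, linear from 0, with a separate scale per gene) in each KO IP, WT IP and WT input library; shape gives the set of library numbers and the bars give mean and SD over 6 libraries, cut at 0 where the SD exceeds the mean. KO and WT libraries overlap for all 4 genes, while the input is above every IP library for Galr1 (9.32 CPM) and Gal (5.92 CPM).

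None of the relatives or ligands thus passed the test of genotype. Of the 7 genes, 4 had enough counts for the fit (Gpr151, Galr1, Galr2 and Kiss1r) and Gpr151 was called. In the fit without a filter, 6 could be fitted, and the adjusted p of the other 5 was 0.985 to 0.991 in edgeR. Over 12 exact permutation tests (6 genes, in all IP libraries and in the later ones), 3 gave an unadjusted p under 0.05: Gpr151 in both and Galr3 in the later libraries. The Galr3 value rested on a gap between 3 and 2 counts and is not read as a difference. The intervals for Galr1 and Galr2 span more than 2 units of log2, so a sizeable change in either could have been missed. The same holds for Gal and Galr3, whose intervals in the fit without a filter were -0.0081 to 3.15 and -0.90 to 3.14. Gal is thus not shown to be unchanged.

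**Figure D4:**
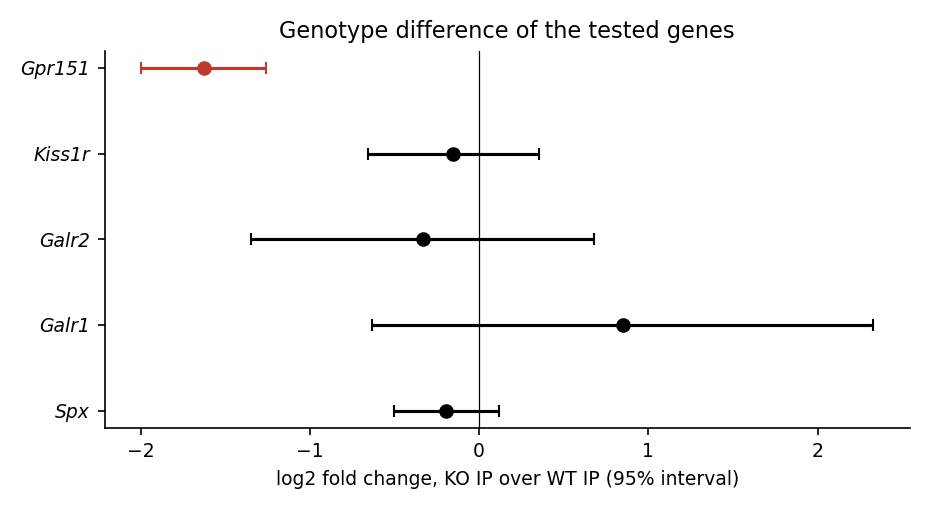
Log2 fold change of KO IP over WT IP (horizontal axis) with its 95% interval from the edgeR fit of 12 libraries, for the tested receptors and for the galanin receptor ligand Spx. Gpr151 (red) lies at -1.63 with an interval clear of 0, and the intervals of Kiss1r, Galr2, Galr1 and Spx include 0.

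Purified RNA was then set against the homogenate, to see which transcripts were higher or lower after purification. The input differed from the IP libraries in other ways too. It listed 37328 symbols, against 32531 or 24454, and had 3.98% ambiguous reads, against 0.581% to 1.36%. Saccharin was named for the input alone. These differences cannot be told apart from the effect of purification in any ratio. There was 1 input library, so no test was made. Ratios are log2 of IP over input after adding 1 CPM to each, and a gene was called enriched when each of 6 IP libraries was at least 2 times the input, or depleted when each was at most the inverse, among genes with 5 CPM in the input or as the IP mean. Both genotypes were compared with the same input, so their ratios are not independent. No homogenate of KO mice was sequenced, so a KO ratio holds the genotype difference together with the effect of purification.

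Gpr151 was enriched over the WT input in WT IP, and in KO IP it was above the same WT input by less. Its enrichment over a KO homogenate is not known. Its median log2 ratio was 1.02 in KO IP (range 0.86 to 1.66) and 2.79 in WT IP (range 2.51 to 3.13). The WT value was called, as were 4.71% of 11435 genes. The KO value was not, because libraries 683, 1099 and 1102 fell short of 2 times the input with log2 ratios of 0.86, 0.87 and 0.88; 3.42% of 11400 genes were called. That call depended on scaling: with TMM-scaled library sizes the median over all genes moved to 0.13 in KO IP and 0.16 in WT IP, against -0.11 in KO IP and -0.070 in WT IP without it. Gpr151 in KO IP then had a median of 1.25 (range 1.06 to 1.91) and was called enriched, as were 4.55% of genes, with 4.74% depleted; in WT IP 6.25% were then enriched and 8.13% depleted. Pooled over libraries, Gpr151 was 2.34 times the input in KO IP (95% exact interval 2.25 to 2.43) and 7.06 times in WT IP (6.81 to 7.33), counting error only. For comparison, 13 of 16 measured medial habenula markers were enriched in KO IP (median 2.72) and 14 of 17 in WT IP (median 3.04).

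Galr2 and Kiss1r were above the input in all IP libraries but 1 KO library each. These were library 1100 for Galr2 (0.63 times the input) and library 1099 for Kiss1r (0.67 times the input). Kiss1r was barely above the input in WT library 1091 (1.01 times) and KO library 1102 (1.08 times). Some Galr2 counting intervals (95%) overlapped that of the input (0.174 to 0.533 CPM), such as those of libraries 683 (0.288 to 0.748) and 682 (0.338 to 0.855 CPM). Galr2 was above the input in 5 of 6 KO and 6 of 6 WT IP libraries. Pooled, its 229 counts in KO IP were 2.69 times (95% exact interval 1.57 to 4.998) and its 301 counts in WT IP 3.72 times the input (2.18 to 6.89), resting on 14 input counts and below the level needed for a call. Kiss1r had median log2 ratios of 0.43 in KO IP (range -0.46 to 1.61) and 0.73 in WT IP (range 0.01 to 1.02), and neither was called. Its pooled ratio was 1.58 in KO IP (1.37 to 1.82) and 1.69 in WT IP (1.47 to 1.95). R3hdm4, which overlaps Kiss1r exons, was itself higher in purified RNA (237 CPM in KO IP and 283 CPM in WT IP, against 122 CPM). The part of R3hdm4 reads in the Kiss1r ratio was not tested.

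Galr1 and Gal were below the input in every IP library of both genotypes. Gal was called depleted, with median log2 ratios of -2.14 in KO IP (range -2.77 to -1.70) and -2.60 in WT IP (range -2.73 to -1.75), as were 7.11% of genes in KO IP and 11.1% in WT IP. In pooled counts it was 11.4-fold lower than the input in KO IP (95% exact interval 9.26 to 14.1) and 23.2-fold lower in WT IP (17.6 to 30.9). Library 682 held 38 of the 65 WT counts, and without it Gal was 47.96-fold lower in WT IP (32.2 to 74.2). Galr1 had medians of -2.08 in KO IP and -2.31 in WT IP. It missed the call because KO libraries 1099 and 1102 had -0.54 and -0.86 and WT library 1091 had -0.92, the same 3 libraries that held the most non-neuronal markers. Without library 1091, Galr1 was called depleted in WT IP, with a median of -2.52.

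**Figure D5:**
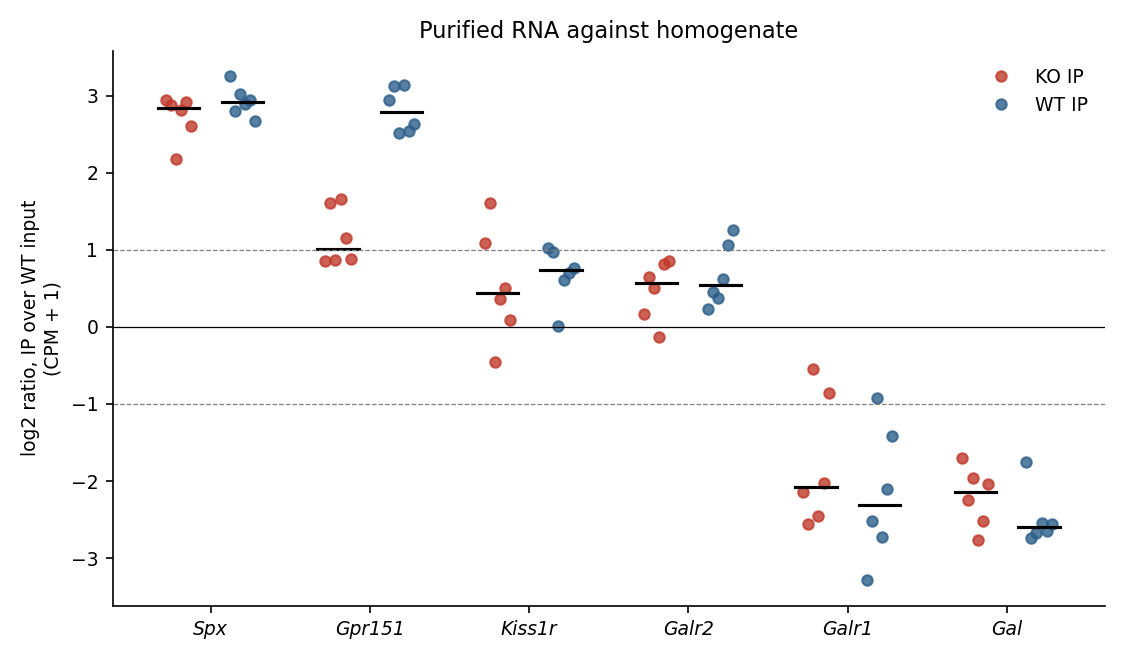
Log2 ratio of each IP library over the WT input (vertical axis, CPM + 1), with KO libraries in red left of WT libraries in blue; black bars are medians of 6 libraries and dashed lines mark 2 times the input and its inverse. Spx lies near 2.84 (KO) and 2.92 (WT), Gpr151 at 1.02 (KO) and 2.79 (WT), Kiss1r and Galr2 near or above 0, and Galr1 and Gal below 0 in every library.

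Among other ligands and processing genes of the galanin family, Spx was concentrated in purified RNA. Spexin had 468 to 966 counts per KO IP library and 401 to 1069 per WT IP library, against 64 in the input. The earlier libraries list it under the older symbol B230216G23Rik, which RefSeq gives as a synonym. In CPM the KO libraries had 17.9, 17.0, 10.1, 16.2, 17.5 and 13.9, the WT libraries 22.4, 16.1, 18.8, 17.2, 17.8 and 14.6, and the input 1.45. All 12 IP libraries were thus several-fold above the input, and the lowest was KO library 1099. The input listed 37328 symbols, against 32531 in the earlier and 24454 in the later IP libraries. Whether exons of Spx overlap those of other genes was not examined, so reads set aside as ambiguous in the input could affect this ratio. Spx was called enriched with median log2 ratios of 2.84 in KO IP (range 2.18 to 2.95) and 2.92 in WT IP (range 2.67 to 3.26), ranking 106 of 11400 and 116 of 11435 genes. The genotypes did not differ beyond their spread (log2 fold change -0.19 ± 0.14, SE, 95% interval -0.50 to 0.12, edgeR adjusted p = 0.999).

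The list of 10 other peptide ligands held 6 genes with enough counts for the genotype test, and none passed in edgeR (median 0.23). Those with the smallest p were Pnoc, the nociceptin precursor (2.26 ± 0.47, SE, edgeR adjusted p = 0.680, but DESeq2 adjusted p = 0.0184), and Sst, the somatostatin precursor and also a GABAergic marker above (0.95 ± 0.27, edgeR adjusted p = 0.999). Both were below the input in the median: Pnoc had -2.75 in KO IP and -3.46 in WT IP, and Sst -2.16 in KO IP and -2.74 in WT IP. At the other end, beside Spx, was Tac2, the neurokinin B precursor, with 2.78 in KO IP and 2.93 in WT IP.

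All 12 genes of peptide processing and secretory granules were tested and none passed (median 0.04, range -0.03 to 0.68). Chga, which codes for a granule protein, had 0.27 ± 0.13 and Scg2, a granule protein precursor, 0.15 ± 0.13 (SE, edgeR adjusted p = 0.999 for both). Pam, the enzyme that amidates peptides such as galanin and kisspeptin, was enriched with median log2 ratios over the input of 1.69 in KO IP and 1.68 in WT IP. The protease gene Pcsk1 in KO IP (1.07) and the granule protein gene Scg3 in WT IP (1.05) came next and were not called. Pcsk5, a further protease, was lowest with -2.17 in KO IP and -2.64 in WT IP, then Chga with -1.08 in KO IP and -1.31 in WT IP.

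Of 41 genes for the G proteins, phospholipases, cyclases, potassium channels, kinases and arrestins that such receptors act on, 37 were tested and none passed (median 0.07, range -0.29 to 0.76). The smallest p belonged to the adenylyl cyclase Adcy9 (0.33 ± 0.16) and the G protein subunit Gng4 (0.76 ± 0.39, SE, edgeR adjusted p = 0.999 for both). Against the input, Gng8, a G protein gamma subunit, had a median log2 ratio of 2.66 in KO IP and 3.15 in WT IP, and the beta subunit Gnb5 2.04 in KO IP and 2.20 in WT IP. Gng4 was lowest with -2.71 in KO IP and -3.65 in WT IP, and the cyclase Adcy5 had -2.46 in KO IP and -2.89 in WT IP.

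No other receptor passed either. Of 42 neuropeptide receptors 28 were tested (median 0.30), with the smallest p for the somatostatin receptor Sstr1 (1.05 ± 0.46) and the neurotensin receptor Ntsr2 (1.04 ± 0.46, SE, edgeR adjusted p = 0.999 for both). Of 47 orphan and related receptors 40 were tested (median 0.0079), led by Lgr5 (1.17 ± 0.47) and Gpr37l1 (1.12 ± 0.48, SE, edgeR adjusted p = 0.999 for both). Ntsr2 and Gpr37l1 were also the lowest of their lists against the input: Ntsr2 had median log2 ratios over the input of -3.08 in KO IP and -3.75 in WT IP, and Gpr37l1 had -3.39 in KO IP and -3.85 in WT IP. Among receptors enriched over the input, Sstr4 had 3.26 in KO IP and 3.58 in WT IP, the substance P receptor Tacr1 2.60 in KO IP and 2.75 in WT IP, and the orphan receptor Gpr139 1.78 in KO IP and 1.89 in WT IP. Gpr151 in WT IP (2.79) lay within this group, and in KO IP (1.02) below it. The lowest values besides were Nmbr with -2.89 in KO IP and -3.14 in WT IP, Gpr27 with -3.35 in KO IP and Gpr37 with -3.35 in WT IP.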

How the data were processed

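Each deposited table held whole-number counts by gene symbol for 1 library. The submitters' processing notes name mm10, HTSeq, DESeq2 and STAR 2.3.0e, and neither an annotation nor a strand setting. Summary lines and a row named unknown were left out. Tables did not list the same genes: 23858 symbols were shared by the 12 IP libraries and 22683 by all 13, after Spx was joined to its older symbol. HTSeq set aside as ambiguous 0.581% to 1.36% of what it read in IP libraries and 3.98% in the input. Genotype was tested in the 12 IP libraries with edgeR 4.0.16 in R 4.3.3 (filterByExpr with a minimum count of 10 and a total of 15, TMM, robust quasi-likelihood test, two-sided, Benjamini-Hochberg adjustment), with the 3 sets of library numbers as a term. Each standard error is the size of the fold change divided by the square root of F. Fits and ratios were tested on simulated data. Alternatives used DESeq2 1.42.0 and the settings in the closing section. Single values were compared by exact two-sided permutation (scipy 1.17.1). Positions and exon lengths came from GENCODE M21. List genes were named by the 2 smallest p in the genotype fit and by the 2 highest and 2 lowest ratios over the input. One result under this rule is not reported here. The 7 genes and the lists were chosen with earlier results of these data known.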

Additional observations from a re-analysis of the deposited data

Results flagged for a closer look

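In 12 sets of 6 libraries (6 genes, 2 genotypes), 3 had a library far from the others by Dixon's test at its 95% limit, which chance gives for about 1 in 20. Gal was at 1.13 CPM in KO library 683 and 1.05 CPM in WT library 682 of the same set, and library 682 was the one set apart, since the next WT library had 0.181 CPM. Galr3 was at 0.186 CPM (8 counts) in KO library 1101, where the next KO library had 0.0778 CPM. In WT library 682 Galr3 was at 0.138 CPM (5 counts), where the next WT library had 0.0497 CPM.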

How the results depend on the processing

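Gpr151 kept its direction under all 21 alternatives, with log2 fold changes of -1.82 to -1.52, and none of the tested genes among Galr1, Galr2, Galr3, Kiss1r, Gal and Kiss1 was called under any of them. Of the other ligands, Pnoc was called with DESeq2 (adjusted p = 0.0184). Gpr151 lost its call with the 8 later libraries alone (-1.54, edgeR adjusted p = 0.424) and without library 683 (-1.54, adjusted p = 0.0538); leaving out 1 library each gave -1.75 to -1.53. The count of genes called, 2 as reported, was 12 with DESeq2, 1 with a minimum of 1 CPM in 6 libraries, 1 without libraries 1091, 1099 and 1102 (chosen after seeing the data), 0 with the later libraries alone (332 at an unadjusted p under 0.05) and 0 to 2 when leaving out 1 library each, with 0 without library 683 (528 at an unadjusted p under 0.05). With the 4 earlier libraries alone, Galr2 turned to 0.092 and Kiss1r to 0.37 on the log2 scale, and Kiss1r was 0.014 without libraries 1091, 1099 and 1102; the cause was not tested. With a pseudocount of 0.1 CPM, the median log2 ratio of IP over input moved to 1.34 (KO) and 1.27 (WT) for Galr2, -3.18 (KO) and -4.66 (WT) for Gal, and 3.43 (KO) and 3.50 (WT) for Spx, with no change of direction. Calls against the input changed for Gpr151 in KO IP, enriched with TMM scaling, and for Galr1 in WT IP, depleted with that pseudocount (-3.02) or without library 1091. The labels number no replicates, so replicate numbers could not serve as a block. The library sets, 2 of which hold 1 KO and 1 WT library, were a term of the fit. Without that term Gpr151 was -1.62 (edgeR adjusted p = 0.00661) and 2 genes were called. Depth limits Galr2, Gal and Galr3, and 1 input library gives no replicate error for any ratio.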

Other observations

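Over the 12 IP libraries, the 3 of 14318 tested genes whose log2 CPM, centred on each gene's mean, differed least from that of Gpr151 were Vmn2r29, Mab21l3 and Myot, with root mean square differences of 0.50, 0.52 and 0.52 log2 units, where the median gene had 0.94. Vmn2r29 belongs to the vomeronasal receptor family, whose members are alike in sequence, so its reads are uncertain; it averaged 0.63 log2 CPM in KO IP and 1.97 in WT IP. Mab21l3 averaged -2.41 log2 CPM in KO IP and -1.20 in WT IP. Myot, which codes for a protein of muscle and lies on chromosome 18 like Gpr151, averaged 0.042 log2 CPM in KO IP and 1.18 in WT IP. None of the 3 passed the genotype test (edgeR adjusted p = 0.999 for each). They were picked for their likeness to Gpr151 in these same libraries, so lower means in KO IP follow from the choice. A gene at a constant level would have had a root mean square difference of 0.86.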
